A study of Homo sapiens with 6 samples.

Results

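The miR-548 family was examined in Huh7 cells, a human liver cancer cell line, by sequencing of mature miRNAs. Members were all rows of the miRNA table named hsa-miR-548 followed by a letter, with or without an arm suffix, and rows without a count were kept. There were 80 members among 2588 miRNAs, or 3.09% of the names. The overexpression group held 3 samples transfected with a plasmid for the circular RNA hsa_circ_0098181, and the control group held 3 samples transfected with the control plasmid. Both plasmids were delivered with Lipofectamine 2000 and total RNA was taken after 48 h. The comparison addressed which miRNAs changed when this circular RNA was raised, since circular RNAs can bind miRNAs. Huh7 is a single cell line and the expression was transient.

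A mature miRNA guides the silencing machinery to messenger RNAs, mainly through its seed, which is bases 2 to 8. Each hairpin precursor has a 5p and a 3p arm, and either can become the mature product. The miR-548 genes are primate specific and are thought to come from MADE1 elements, short mariner-like DNA transposons whose inverted repeats fold into a hairpin. Copies of the element are scattered over the genome, and the family is large. Repeat annotation was not used here, so the origin of each member is background and was not tested.

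Sequences were available for 54 of the 80 members in RefSeq (GRCh38.p14), among them 13 of the 18 members that were abundant enough to test. The 13 are shown because they include miR-548x-3p, miR-548b-3p and the other members whose values are described most closely below, 5′ to 3′, with the seed in capitals.
hsa-miR-548x-3p: uAAAAACUgcaauuacuuuc
hsa-miR-548k: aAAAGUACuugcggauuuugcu
hsa-miR-548b-3p: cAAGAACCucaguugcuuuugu
hsa-miR-548ay-3p: cAAAACCGcgauuacucuugca
hsa-miR-548j-5p: aAAAGUAAuugcggucuuuggu
hsa-miR-548ar-3p: uAAAACUGcaguuauuuuugc
hsa-miR-548e-5p: cAAAAGCAaucgcgguuuuugc
hsa-miR-548o-3p: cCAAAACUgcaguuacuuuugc
hsa-miR-548n: cAAAAGUAauuguggauuuugu
hsa-miR-548l: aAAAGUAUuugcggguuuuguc
hsa-miR-548t-5p: cAAAAGUGaucgugguuuuug
hsa-miR-548at-5p: aAAAGUUAuugcgguuuuggcu
hsa-miR-548u: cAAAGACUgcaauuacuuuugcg
The 5 tested members named without a sequence were miR-548a-3p, miR-548a-5p, miR-548e-3p, miR-548d-3p and miR-548h-5p.

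The members were poor in G and C. Their median G and C content was 34.1% (range 15.8 to 54.5%), against a median of 52.2% over the 2227 other miRNAs with a sequence. The 54 sequences held 29 different seeds, and 8 seeds were held by more than 1 member, together covering 33 members. The most shared seed, AAAGUAA, belonged to 11 members with 750 counts in all, of which miR-548j-5p gave 720, and miR-559 outside the family held it too. The seed AAAAACU belonged to 7 members with 6362 counts, of which miR-548x-3p gave 6354. The 13 tested members with a sequence had 13 different seeds, so no seed was represented by more than 1 of them.

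A pair of 9-base motifs, chosen after the sequences were seen, was searched on the mature strand. AAUUACUUU was present in 9 members (16.7%) and in 1 of the other miRNAs (0.0449%), miR-603. Its reverse complement AAAGUAAUU was present in 11 members (20.4%) and in 1 of the others (0.0449%), miR-876-3p. In all 20 members held either motif and 0 held both. Among the tested members with a sequence, miR-548x-3p and miR-548u held the first, and miR-548j-5p and miR-548n the second. No function was read from these matches.

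Some members could share reads. miR-548x-3p shared a run of 19 of its 20 bases with miR-548ae-3p and miR-548aj-3p, which had 6 and 2 counts.
hsa-miR-548ae-3p: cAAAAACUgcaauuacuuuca
hsa-miR-548aj-3p: uAAAAACUgcaauuacuuuua
These 2 are shown because they differ from miR-548x-3p only at their ends. Likewise miR-548k shared a run of 18 bases with miR-548av-5p (0 counts), miR-548n a run of 20 with miR-548ab (0 counts), and miR-548ar-3p a run of 17 with miR-548s (8 counts). miR-548o-3p shared a run of 20 with miR-548ah-3p and miR-548av-3p (0 counts each). A run of 19 was shared by miR-548j-5p and miR-548ap-5p (0 counts), and a run of 17 by miR-548u and miR-548aq-3p (0 counts). How the authors treated reads matching several miRNAs is not given in the sources used here, so the split of counts within these groups is uncertain. miR-548b-3p shared a run of no more than 7 bases with any other member that has a sequence.

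The 54 sequences mapped to 50 loci on 21 chromosomes. In GENCODE 29 (GRCh38), 31 loci lay in a gene on the same strand, in an intron each time, 5 lay only opposite a gene and 14 lay in no gene. The 13 tested members with a sequence accounted for 15 loci, 12 of them in an intron on the same strand. miR-548x-3p had 2 loci, one on chromosome 21 (18686100 to 18686119, minus strand) in an intron of the noncoding host gene MIR548XHG and the other on chromosome 13 (65966352 to 65966371, minus strand) in no gene. miR-548b-3p lay on chromosome 6 (119069062 to 119069083, minus strand) in an intron of FAM184A, with an intron of an antisense transcript on the other strand. miR-548ar-3p lay on chromosome 13 (114244541 to 114244561, plus strand) in an intron of CDC16, a subunit of the anaphase-promoting complex. miR-548l lay on chromosome 11 (94466545 to 94466566, minus strand) in an intron of MRE11, a DNA double-strand break repair nuclease.

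The 6 libraries held 7144798 to 10786295 counts. The liver markers miR-122, miR-192 and miR-194, which are enriched in liver, summed to 366225 to 384122 TPM with overexpression and to 346875 to 372659 TPM in the controls, where TPM is the count divided by the sample's total count and scaled to the same sum in every sample. Control replicate 3 stood apart. Over 192 abundant miRNAs its median absolute log2 difference from control replicates 1 and 2 was 0.21 and 0.20, while those 2 differed by 0.055 and the overexpression samples by 0.088 to 0.12 among themselves. From overexpression replicates 1, 2 and 3 it differed by 0.13, 0.21 and 0.17. Those distances were 0.14, 0.17 and 0.14 for control replicate 1 and 0.13, 0.18 and 0.16 for control replicate 2. Control replicate 3 was thus nearer to overexpression replicates 1 and 3 than to the other controls. Whether it was faulty was not tested. Calls, the counts of separated members and the family sum are therefore also given without it.

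miR-548 miRNAs were a small part of the miRNA pool in these cells, and a few 3p products carried most of it. The family had 17403 counts, or 0.0339% of all counts. Of the 80 members, 36 had no count in any library (45% against 47.2% of all miRNAs), which allows a level of up to 0.0584 TPM over the 6 libraries (3 counts, counting error only). Another 26 had counts but were too low to test, with totals of 1 to 35 and 203 counts together, 1.17% of the family. The remaining 18 were tested (22.5% against 21.3% of all miRNAs).

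**Figure D1:**
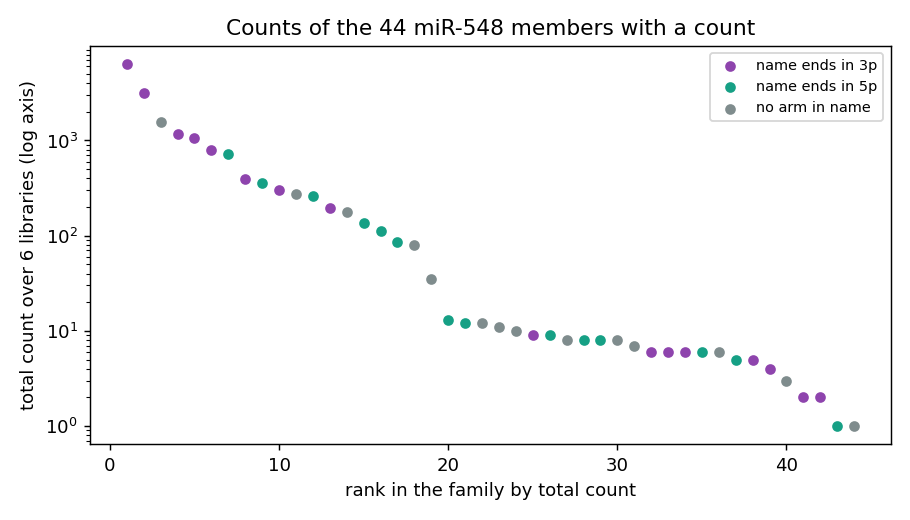
Total count over 6 libraries (log axis) of the 44 miR-548 members with a count, by rank, coloured by arm. The highest point is miR-548x-3p with 6354 counts, 18 members stand at 79 counts or more, and the others lie at 35 or fewer.

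The leading member, miR-548x-3p, took 36.5% of the family's counts, the top 2 took 54.8% and the top 5 took 76.6%. Even so, miR-548x-3p ranked only 142 among all miRNAs by mean TPM. With values given in the order of replicates 1, 2 and 3 from here on, it measured 119.9, 114.3 and 118.7 TPM under overexpression against 133.4, 139.6 and 111.3 TPM under control. Control replicate 3 fell below every overexpression sample, so the groups overlapped, with means of 118 ± 2.97 and 128 ± 14.9 TPM (SD, n = 3 each).

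Next came miR-548a-3p, with 56.9, 60.6 and 60.8 TPM under overexpression against 64.3, 69.6 and 57.2 TPM. Its groups overlapped through control replicate 3. miR-548k measured 33.3, 25.9 and 29.1 TPM against 34.1, 31.6 and 27.7 TPM, and its groups overlapped too. The order of these 3 held in every library, with miR-548x-3p above miR-548a-3p above miR-548k and no overlap of their values.

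The next 3 lay closer together. miR-548b-3p measured 19.3, 16.8 and 17.7 TPM against 24.5, 33.8 and 24.4 TPM, so that every overexpression sample was lower. miR-548ay-3p measured 22.3, 17.7 and 21.1 TPM against 19.2, 19.9 and 23.5 TPM, with mixed samples. Their ranges overlapped over the 6 libraries, so their order was not set beyond the spread. miR-548e-3p measured 15.4, 11.8 and 17.6 TPM against 16.6, 14.4 and 15.96 TPM, with the lowest and the highest value both in the overexpression group. miR-548j-5p measured 13.7, 14.2 and 14.7 TPM against 14.5, 12.7 and 14.4 TPM, and lay within the range of miR-548e-3p.

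Below 10 TPM, the range of each member over the 6 libraries overlapped that of its neighbours in the order. miR-548ar-3p measured 6.77, 6.02 and 5.91 TPM against 9.09, 9.91 and 7.28 TPM, the second of 2 members whose groups did not overlap with every overexpression sample lower, where 16.3% of all miRNAs tested were apart in that way. miR-548e-5p measured 6.27, 6.85 and 6.03 TPM against 8.62, 6.91 and 6.02 TPM, and its groups overlapped only through control replicate 3. miR-548o-3p measured 6.14, 4.60 and 4.70 TPM against 7.23, 6.34 and 5.74 TPM. Those groups overlapped because overexpression replicate 1, at 6.14 TPM, lay above control replicate 3, at 5.74 TPM. miR-548n measured 5.26, 4.60 and 4.95 TPM against 6.12, 5.99 and 5.04 TPM, and miR-548a-5p 6.02, 4.72 and 4.58 TPM against 4.64, 5.88 and 5.04 TPM. In both the groups overlapped.

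The 6 tested members of lower count had totals of 79 to 195. miR-548d-3p averaged 3.10 ± 1.55 TPM under overexpression and 4.57 ± 0.782 TPM under control, where overexpression replicate 1 alone, at 4.89 TPM, reached the control range. miR-548l averaged 3.84 ± 0.176 and 3.18 ± 0.693 TPM. miR-548h-5p, miR-548t-5p, miR-548at-5p and miR-548u followed, with single values between 0.627 and 4.34 TPM that overlapped between the groups. In miR-548at-5p the third replicate was the highest of both groups, with 21 counts in each.

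Most of the family's counts came from names ending in 3p. The 28 such names held 77.4% of the counts, and the 28 names ending in 5p held 9.95%. The 24 names without an arm held 12.6% and were not assigned to one, so the share of either arm may be higher. The 3p share per sample was 76.5, 77.1 and 76.8% under overexpression against 77.2, 79.5 and 76.7%. The groups overlapped, and their means differed by -1.01 percentage points (76.8 ± 0.307% against 77.8 ± 1.51%). The difference was -0.15 points without control replicate 2, which had the highest share, and -2.05 points with miR-548x-3p left out of the sum. With miR-548x-3p left out, the 3p share itself averaged 63.3% under overexpression and 65.4% under control.

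Which arm was measured differed from gene to gene. Of the 12 names with both arms in the table and at least 50 counts, 7 gave more than 90% of their counts from 3p and 4 gave less than 10%. miR-548x (6354 counts from 3p and 0 from 5p), miR-548b (1174 and 0), miR-548ay (1051 and 0) and miR-548d (195 and 0) were read from 3p only. miR-548j (0 from 3p and 720 from 5p), miR-548h (0 and 135) and miR-548t (0 and 112) were read from 5p only. The handling of reads matching several miRNAs is not given, so a count of 0 does not show that an arm was absent. The sequence of miR-548x-5p was identical to that of 2 other members, miR-548aj-5p and miR-548g-5p, and all 3 were at 0. miR-548b-5p, also at 0, was identical to no other member with a sequence but shared a run of 14 bases with 2 of them.

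Only miR-548a and miR-548e had both arms tested. miR-548a gave 92.4% of its counts from 3p, and the log2 ratio of 3p to 5p counts was 3.53 ± 0.27 under overexpression and 3.61 ± 0.15 under control (SD, n = 3 each; two-sided exact permutation p = 0.8, adjusted over 2 names 0.9). miR-548e was the most balanced of the 12, with 69.0% from 3p and ratios of 1.20 ± 0.39 and 1.13 ± 0.24 (exact permutation p = 0.9, adjusted 0.9). With 3 samples against 3 this test cannot give a p under 0.1. Neither ratio differed by more than the spread between samples.

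With overexpression of hsa_circ_0098181, no member of the family passed the adjusted threshold. In edgeR's quasi-likelihood test with TMM factors, 0 of the 18 members had an adjusted p under 0.05, as did 0% of the 552 miRNAs tested, and DESeq2 and limma gave 0 members as well. Directions were evenly split, with 9 members lower and 9 higher, and the members' median log2 fold change was 0.0014 beside 0.0038 for all miRNAs tested. An unadjusted p under 0.05 was found for 1 member, miR-548b-3p, which was lower, where 4.71% of all miRNAs tested were lower at that level. Fewer cells with a miRNA and less of it per cell cannot be told apart in such bulk samples.

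miR-548b-3p had the log2 fold change farthest from 0 among the 18 members. It had 264, 293 and 174 counts in the controls but 154, 142 and 147 counts with the circular RNA plasmid, in TPM a mean of 27.5 ± 5.40 against 17.9 ± 1.28 (SD, n = 3 each). The TPM ratio of overexpression to control was 0.651. With TMM factors the log2 fold change was -0.51 (SE 0.15, 95% interval -0.84 to -0.18), a ratio of 0.703. The unadjusted p was 0.0053 and the adjusted p 0.306 in edgeR's quasi-likelihood test, and 8 miRNAs had a lower p. Every overexpression sample remained below every control sample after TMM scaling. Without control replicate 3 its log2 fold change was -0.63 (SE 0.13, adjusted p = 0.000571 by edgeR), and without control replicate 2, the highest sample, it was -0.33 (adjusted p = 0.779).

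miR-548ar-3p was lower by less. It had 54, 51 and 49 counts under overexpression against 98, 86 and 52, a TPM ratio of 0.712. With TMM factors its log2 fold change was -0.39 (SE 0.19, adjusted p = 0.562 by edgeR), a ratio of 0.763, with a 95% interval from -0.80 to 0.018. After TMM scaling its groups no longer separated, because control replicate 3 was at 6.69 CPM beside 6.79 CPM in overexpression replicate 1.

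In TPM, 2 of the 18 members lay lower in every overexpression sample than in every control sample, against 16.3% of all miRNAs tested, and 0 lay higher, against 1.99%. These counts rested on control replicate 3. Against control replicates 1 and 2 alone, 7 members lay lower (miR-548x-3p, miR-548a-3p, miR-548b-3p, miR-548ar-3p, miR-548e-5p, miR-548o-3p and miR-548n), where 27.9% of the same miRNAs did, and 1 lay higher (miR-548l), where 10.7% did. With TMM factors, 1 member lay lower (miR-548b-3p), against 6.52%, and 1 lay higher (miR-548l), against 8.88%. The exact permutation test on TPM gave p = 0.1 for miR-548b-3p and for miR-548ar-3p, the smallest that 3 against 3 allows. Groups that lie fully apart must give that value, so it adds nothing to their separation. For miR-548l, whose groups overlapped in TPM, the same permutation test gave p = 0.2.

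miR-548l, named after its values were seen, was the member with the largest positive value. Its TMM-scaled level was 4.03, 3.98 and 3.99 CPM under overexpression against 3.32, 2.35 and 3.47 CPM, but it rested on 21 to 36 counts a library and its TPM overlapped. Its log2 fold change was 0.39 (SE 0.25, adjusted p = 0.61 by edgeR).

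**Figure D2:**
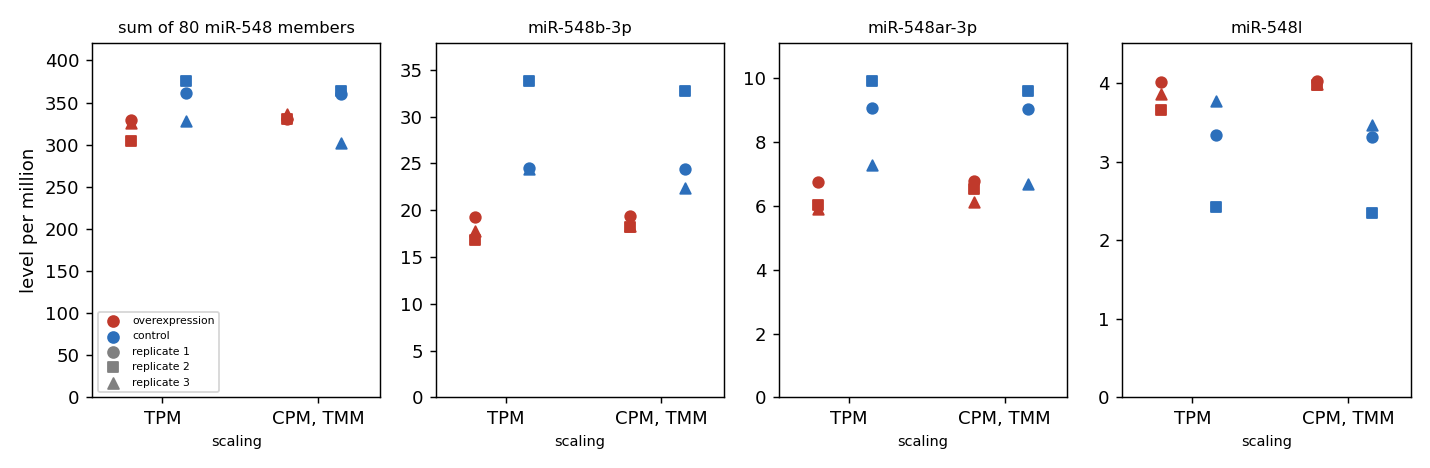
Level in each sample, as TPM and as CPM with TMM factors, for the family sum, miR-548b-3p, miR-548ar-3p and miR-548l, overexpression in red and control in blue. miR-548b-3p separates on both scales, miR-548ar-3p only in TPM, miR-548l only with TMM factors, and the sum on neither.

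For most members the fit of all 6 samples bounded a change to within 2-fold. The 95% interval of the log2 fold change lay within 2-fold either way for 16 of the 18 and within 1.5-fold for 9, and reached between 0.26 and 0.97 to either side of the estimate. The most abundant member, miR-548x-3p, had a log2 fold change of -0.013 (SE 0.12), and miR-548a-3p one of 0.011 (SE 0.12). The 2 members whose interval passed 2-fold were miR-548u (79 counts), from -1.20 to 0.69, and miR-548d-3p (195 counts), from -1.08 to 0.20. Changes of a size within a member's interval were not excluded by these 6 samples. The members' median SE of 0.20 equalled that of the 360 other miRNAs in the same TPM range, of which 52.5% were lower with a median of -0.022.

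**Figure D3:**
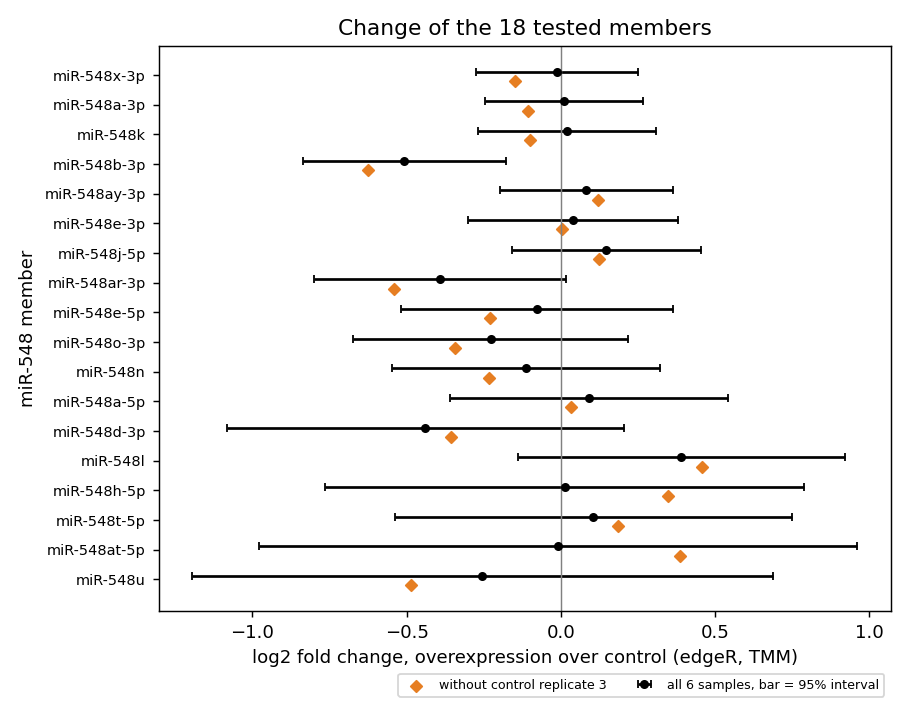
log2 fold change of overexpression over control for the 18 tested miR-548 members in edgeR with TMM factors, black points with 95% intervals for all 6 samples and orange diamonds without control replicate 3. Only the interval of miR-548b-3p (-0.84 to -0.18) lies wholly on one side of 0.

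Without control replicate 3, 1 of the 18 members, miR-548b-3p, passed the adjusted threshold as lower, where 6.73% of the 565 miRNAs then tested were called lower, and 0 members passed as higher, where 3.19% were called. The members' median log2 fold change was then -0.10 and that of all miRNAs -0.0013. miR-548x-3p was then at -0.15 (SE 0.095), miR-548a-3p at -0.11 (SE 0.098) and miR-548e-5p at -0.23 (SE 0.21), none past the threshold. miR-548ar-3p stood at -0.54 with an adjusted p of 0.0691 in edgeR's test. With library size alone as the scaling, 16 of the 18 members were lower, where 70.5% of all miRNAs tested were lower. The median of all miRNAs then shifted to -0.11 and that of the members was also -0.11.

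Summed over the 80 members, the family measured 329.5, 304.3 and 325.6 TPM under overexpression against 361.4, 375.2 and 328.1 TPM. Overexpression replicate 1 lay above control replicate 3, so the groups overlapped. The log2 ratio of the means (319.8 ± 13.6 and 355 ± 24.2 TPM) was -0.15, and -0.039 with TMM factors. Without control replicate 3 the TPM sums did not overlap and the log2 ratio was -0.20. The 26 members too low to test had 85 counts with overexpression and 118 without.

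Markers of other cell types were measured beside these values. The leukocyte markers (3 of 3 with counts) summed to 10.98 to 12.1 TPM under overexpression and to 14.7 to 17.7 TPM under control, without overlap, and the stromal markers miR-143-3p and miR-145-5p to 81.6 to 88.7 and 90.5 to 99.5 TPM. Both moved with the groups in the direction of miR-548b-3p and miR-548ar-3p in TPM, and their part in those results was not tested. With TMM factors miR-143-3p, which carried most of the stromal sum, averaged 85.2 CPM under overexpression and 86.6 CPM under control (log2 fold change -0.023, adjusted p = 0.931 by edgeR), and its groups overlapped. Within the leukocyte list, miR-142-3p averaged 9.23 ± 0.743 and 14.1 ± 2.44 TPM, while miR-142-5p and miR-223-3p had the higher mean under overexpression. With TMM factors miR-142-3p stayed lower, with a log2 fold change of -0.50 (adjusted p = 0.314 by edgeR). miR-223-3p was higher, at 0.45 (adjusted p = 0.715 by edgeR), and miR-142-5p was too low to test. The endothelial marker miR-126-3p moved the other way, with 3186 to 3271 TPM against 3053 to 3165 TPM. No marker of any list was at 0 in all libraries. The erythroid markers (0.922 to 1.21 TPM in the controls), the neural markers (98.6 to 149 TPM in the controls) and the muscle markers (1.68 to 2.23 TPM) overlapped between the groups.

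miRNAs of like origin outside the family name were compared. miR-570-3p, also attributed to MADE1, was more abundant than any member but miR-548x-3p, with 510, 666 and 663 counts under overexpression against 1028, 825 and 496. Its log2 fold change was -0.11 (adjusted p = 0.799 by edgeR) and its groups overlapped in TPM, at 74.2 ± 8.91 and 86.6 ± 14.9. miR-570-5p had 8 counts and miR-603 had 1. Of 26 miRNA names from other transposable elements, 17 were tested, 8 lower and 9 higher with a median of 0.033. Of these 0 passed the adjusted threshold in edgeR. An unadjusted p under 0.05 in edgeR was found for 3, miR-151a-3p (0.24), miR-28-3p (0.18) and miR-421 (0.20), all higher. Of the 552 miRNAs tested, 50 had such a p, 24 of them higher. The 17 were more abundant, with a median level of 202 TPM beside 6.29 TPM for the tested miR-548 members.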

How the data were processed

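Mature miRNAs were sequenced from 6 samples of Huh7 cells. The authors deposited raw counts per miRNA. The authors also deposited TPM values, which are the counts scaled to the same sum in each sample, without a length term. The submitters' processing notes name TopHat2 2.0.9, Bowtie and the build hg38 without their roles. The miRNA annotation, read trimming and handling of multiple matches are not given in the sources used here.

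Samples were grouped by their labels. Counts were tested in R 4.3.3 with edgeR 4.0.16 (filterByExpr, minimum count 10 and minimum total 15, TMM factors, two-sided quasi-likelihood test with the group as the only term, Benjamini-Hochberg adjustment over all miRNAs tested, threshold 0.05). The code was tested on simulated data. CPM values are counts scaled by the library size times its TMM factor. For arm ratios 0.5 was added to each count. Alternatives were DESeq2 1.42.0, limma 3.58.1 on log2(CPM + 1), library size alone, upper-quartile factors, other filters, collapsed identical rows, a replicate block and leaving out each sample. Sequences and loci came from RefSeq, and gene context from GENCODE 29.

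Each member kept by the filter is named. Values in every sample are given for the 12 members with the highest total count and for any with an unadjusted p under 0.05 or with groups apart in TPM. Members, lists and rules were chosen with earlier results of these data known. The labels do not say that replicates were separate cultures, so p-values measure only the spread between these samples, which may be technical. Intervals and limits on 0 counts cover counting error only where so stated.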

Additional observations from a re-analysis of the deposited data

How the results depend on the processing

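Over the alternatives apart from leaving out a sample, miR-548b-3p ranged from -0.62 to -0.47 on the log2 scale (adjusted p 0.0805 to 0.479), and miR-548ar-3p from -0.50 to -0.32. The number of all miRNAs called was 3 with library size alone, 6 without a filter and 0 to 56 when each sample was left out (56 without control replicate 3). Members called were 0 in every setting but 1 without control replicate 3. Members lower numbered 16 of 18 with library size alone, where 70.5% of all miRNAs tested were lower. Without a filter 27 of 44 were lower, where 51.4% of all miRNAs were. When a sample was left out, 7 to 12 members were lower, where 48.4 to 52.9% of all miRNAs were. The family total changed by -0.039 with TMM factors and by -0.20 to -0.11 when a sample was left out. The difference in 3p share ranged from -1.57 to -0.15 points when a sample was left out. The count of members apart in TPM without control replicate 3 was added after seeing the data. The log2 arm ratio difference of miR-548a ranged from -0.16 to 0.081 and that of miR-548e from -0.095 to 0.28 when a sample was left out. Signs turned with DESeq2 for miR-548a-3p (-0.00058) and miR-548h-5p (-0.0049), without a filter for miR-548a-3p (-0.0092) and miR-548h-5p (-0.0080), and with library size alone for miR-548a-3p (-0.10), miR-548a-5p (-0.019), miR-548ay-3p (-0.031), miR-548e-3p (-0.069), miR-548h-5p (-0.10), miR-548k (-0.087) and miR-548t-5p (-0.0053). Leaving out a sample gave ranges across 0 for miR-548a-3p (-0.11 to 0.076), miR-548a-5p (-0.017 to 0.19), miR-548at-5p (-0.48 to 0.39), miR-548e-3p (-0.082 to 0.16), miR-548e-5p (-0.23 to 0.10), miR-548h-5p (-0.33 to 0.35), miR-548k (-0.10 to 0.11), miR-548t-5p (-0.0016 to 0.21), miR-548u (-0.64 to 0.090) and miR-548x-3p (-0.15 to 0.050). The cause was not tested. The 7 members that turned in no setting included miR-548b-3p, miR-548ar-3p and miR-548l. Same-numbered replicates deviated with correlations of -0.11, 0.16 and 0.21 over 192 miRNAs, so that not every pair moved together and the numbers were not taken to pair the samples. The replicate block called 0 members, with miR-548b-3p at -0.49 (adjusted p 0.479 by edgeR).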
